A study of Homo sapiens with 18 samples.

Results

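The aldo-keto reductase family was followed here through 7 genes, AKR1A1, AKR1B1, AKR1B10, AKR1C1, AKR1C2, AKR1C3 and AKR7A2, taken by symbol from the 18475 genes of the deposited RNA-seq table. All 7 were listed in the table under their Entrez numbers. RNA-seq had been performed on Wild type cells of a lung epithelial cell line (BEAS-2B, an immortalised bronchial epithelial line), a small cell lung cancer cell line (H446) and a lung adenocarcinoma cell line (A549), to compare how epithelial and cancer cells respond to radiation. Each line gave 3 control libraries and 3 libraries from cells harvested 24 h after 10 Gy X-ray radiation, 18 libraries in all. No harvest time is given for the controls. The libraries of a group are numbered replicates of 1 cell line, and the methods state that experiments were repeated without saying whether these libraries came from separate cultures, so the p-values measure only the spread between these libraries. Levels are in FPKM (fragments per kilobase of transcript, scaled to the mapped reads of a library), a unit that corrects for transcript length, so that levels of different genes can be set side by side.

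Aldo-keto reductases are soluble enzymes that use NADPH to reduce the carbonyl group of aldehydes, ketones and steroids to an alcohol. They clear reactive aldehydes that arise from lipid peroxidation, and several act in hormone and prostaglandin metabolism. The AKR1B10 and AKR1C genes are known targets of NRF2, the transcription factor of the oxidative stress response, which is held in check by KEAP1. High levels of these genes have been described in lung cancers, and the enzymes also reduce carbonyl-containing drugs such as anthracyclines.

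The AKR1C genes are close copies of each other, which bears on every value given for them. Their coding sequences in GENCODE 29 are 972 bases long. AKR1C1 and AKR1C2 are identical at 953 of these, AKR1C1 and AKR1C3 at 889, and AKR1C2 and AKR1C3 at 885. The stretch of 150 bases in which AKR1C1 and AKR1C2 differ most (coding bases 13 to 162, counted from the A of the start codon) shows how little separates their reads. Capitals mark the 26 positions at which at least 1 of the 3 genes differs, and only 11 of these separate AKR1C1 from AKR1C2.
AKR1C1: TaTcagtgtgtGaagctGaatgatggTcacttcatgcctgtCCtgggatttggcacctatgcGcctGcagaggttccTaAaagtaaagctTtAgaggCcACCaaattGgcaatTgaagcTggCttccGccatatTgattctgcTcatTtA
AKR1C2: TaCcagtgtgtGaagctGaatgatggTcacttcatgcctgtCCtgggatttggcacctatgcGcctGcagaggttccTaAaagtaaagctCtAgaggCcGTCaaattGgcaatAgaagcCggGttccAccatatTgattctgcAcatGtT
AKR1C3: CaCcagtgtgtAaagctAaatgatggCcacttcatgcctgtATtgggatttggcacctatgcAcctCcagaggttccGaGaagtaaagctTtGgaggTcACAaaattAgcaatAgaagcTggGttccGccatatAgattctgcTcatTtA

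Reads of 50 bases cannot be placed where 2 genes agree over the whole read. Of the 923 windows of 50 bases in each AKR1C coding sequence, 54.5% of those in AKR1C1, 57.2% of those in AKR1C2 and 23.0% of those in AKR1C3 also occurred in a transcript of another gene. The gene that shared most with AKR1C1 was AKR1C2, with 51.8% of the windows. The share was 28.4% for AKR1B10, most of it with AKR1B15, 10.2% for AKR7A2 and 7.21% for AKR1B1, and it was 0% for AKR1A1. The values of AKR1C1, AKR1C2 and AKR1C3 are therefore also given as their sum, which depends less on how such reads were divided among the 3 genes. It is not free of it, since FPKM divides reads by the length of the transcript they are given to.

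The regions around starts annotated in the AKR1C genes are alike as well. RefSeq windows of 250 bases before an annotated start (GRCh38.p14) were held for 6 of the 7 members. Such a start is not always the outer end of the gene. The AKR1C2 window (chr10:5003858-5004107) and the second AKR1C3 window (chr10:5094164-5094413) lie inside the gene spans given below. The first AKR1B1 window reaches into its gene. AKR1B10 had no entry. The windows are not all intergenic, since those of AKR1C1, AKR1C2 and 1 of the 2 of AKR1C3 overlap exons annotated for the gene itself. These exons begin 88, 84 and 0 bases into the window. Both AKR7A2 windows overlap exons of another gene, PQLC2. They overlap annotated exons from their first base, as does the AKR1A1 window. The first AKR1B1 window reaches an exon after 208 bases. The AKR1C1 and AKR1C2 windows were identical at 245 positions of an alignment of 254, and each AKR1C window held an inverted CCAAT box (ATTGG, or CCAAT on the other strand) between 73 and 86 bases before the start. This motif was also found 98 bases before 1 start of AKR1B1, and it occurred in 32% of all 35116 windows of that length. The 30 bases around it are shown because they carry the part that all AKR1C windows share, with the motif in capitals. Those of AKR1C1, AKR1C2 and the second AKR1C3 window lie at or past the start of an annotated exon of the gene.
AKR1C1 (chr10:4963326-4963355, plus strand): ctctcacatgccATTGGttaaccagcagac
AKR1C2 (chr10:5003921-5003950, minus strand): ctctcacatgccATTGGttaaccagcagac
AKR1C3, first start (chr10:5048696-5048725, plus strand): cttttacatgctATTGGttaaccattaggc
AKR1C3, second start (chr10:5094316-5094345, plus strand): ctcctacatgccATTGGttaaccatcagtc

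The core of the antioxidant response element to which NRF2 binds (TGACNNNGC, searched on both strands) was found in 10.9% of all windows. Among the members it occurred only in the AKR7A2 windows, at 3 places in each of the 2 overlapping windows, and these letters were in no window of AKR1A1, AKR1B1, AKR1C1, AKR1C2 or AKR1C3. The 3 AKR1C genes lie side by side on chromosome 10 (RefSeq, GRCh38.p14), AKR1C1 at chr10:4963415-4983283, AKR1C2 at chr10:4987775-5018000 and AKR1C3 at chr10:5048781-5107686. AKR1B1 (chr7:134442350-134459239) and AKR1B10 (chr7:134527567-134541412) are neighbours on chromosome 7. AKR1A1 (chr1:45550826-45570049) and AKR7A2 (chr1:19302708-19312146) are both on chromosome 1, far apart.

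The total of all listed values lay between 461255 and 529936 FPKM per library. The number of reads is unknown, and a relative depth read from the smallest values of 114 genes lay between 0.914 and 1.09. The library labelled BEAS-2B 10 Gy replicate 2 stood apart. Over 20 p53 target genes, the median log2 difference from the control mean was 0.056 in this library, against 0.86 and 1.04 in the other irradiated BEAS-2B libraries, 0.92 to 0.95 in irradiated A549 and -0.043 to 0.040 in irradiated H446 cells. The BEAS-2B fold changes of the single members tested there, some of the response differences, the summed levels and the list counts are therefore also given without this library. The libraries also deviated from the mean of their line along the GC content of the transcripts. Spearman's rho across genes was 0.35 to 0.46 in the H446 controls and -0.50 to -0.11 in the irradiated ones, 2 ranges that did not overlap, while it ranged from -0.63 to 0.71 without separating the BEAS-2B groups and stayed between -0.13 and 0.17 in A549 cells. In each group 4 of 5 epithelial markers had a mean of at least 1 FPKM, not the same 4 in every line. KRT8 and KRT18, keratins of simple epithelia, were at 342 FPKM or more in all 18 libraries, while the others were far lower. The 3 airway basal markers KRT5, KRT14 and TP63 summed to 0.05 to 0.18 FPKM in BEAS-2B cells, and none reached a mean of 1 FPKM there. Of the 6 neuroendocrine markers of small cell lung cancer, 4 were in the table, and they summed to 0.16 to 0.37 FPKM in H446 cells, to 4.31 to 5.98 FPKM in BEAS-2B cells and to 3.02 to 3.76 FPKM in A549 cells. The alveolar markers NKX2-1, SFTPB, SFTPC and NAPSA summed to 0.79 to 1.28 FPKM in A549 cells. The endothelial gene PECAM1 was at 3.4 to 4.03 FPKM in H446 cells and at most at 0.02 FPKM in the other lines, 3 fibroblast genes summed to 7.34 to 10.8 FPKM in every line, and the leukocyte gene PTPRC did not pass 0.09 FPKM.

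AKR1A1, the general aldehyde reductase, and AKR7A2, which reduces succinic semialdehyde and the dialdehyde of aflatoxin, were the members with the flattest levels. AKR1A1 stood at 33.42, 33.23 and 36.09 FPKM in BEAS-2B controls and at 32.57, 36.67 and 34.45 FPKM after irradiation. In H446 cells it was at 59.06, 60.09 and 59.75 FPKM in the controls and at 57.00, 52.99 and 51.10 FPKM after irradiation. In A549 cells it was at 31.26, 34.04 and 33.60 FPKM in the controls and at 41.92, 35.58 and 35.62 FPKM after irradiation. H446 had the highest level, and its control and irradiated libraries did not overlap. Those of A549 did not overlap either, with the irradiated libraries on the higher side, while the BEAS-2B groups did.

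AKR7A2 was lower throughout. It was at 13.66, 13.67 and 16.84 FPKM in BEAS-2B controls and at 13.42, 17.96 and 15.56 FPKM in irradiated BEAS-2B cells. The H446 controls had 18.02, 19.53 and 18.60 FPKM, and the irradiated H446 libraries 15.75, 15.30 and 13.07 FPKM. The A549 controls had 12.30, 11.67 and 12.90 FPKM, and the irradiated A549 libraries 12.76, 9.73 and 10.74 FPKM. Only in H446 cells did the 2 groups not overlap, with every irradiated library below every control.

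AKR1B1 is aldose reductase, which turns glucose into sorbitol in the first step of the polyol pathway. It was expressed at a high level in all 3 lines. BEAS-2B controls had 115.11, 114.20 and 124.46 FPKM and irradiated BEAS-2B cells 115.19, 128.82 and 119.35 FPKM. H446 controls had 208.18, 212.80 and 201.94 FPKM and irradiated H446 cells 241.52, 226.46 and 208.75 FPKM. A549 controls had 628.08, 650.41 and 626.91 FPKM and irradiated A549 cells 920.36, 849.78 and 935.41 FPKM. The order of the lines was A549, H446, BEAS-2B in both conditions with no overlap, and control and irradiated libraries were separate in A549 cells only.

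AKR1B10, a reductase of retinal and of lipid aldehydes, was an A549 gene in this series. It was at 485.88, 483.88 and 487.12 FPKM in A549 controls and at 657.44, 734.06 and 654.64 FPKM after irradiation. In H446 cells it was at 0.23, 0.18 and 0.39 FPKM in the controls and at 0.39, 0.43 and 0.58 FPKM after irradiation. In BEAS-2B controls it was listed at 0 in 2 libraries and at 0.04 FPKM in the other, and irradiated BEAS-2B libraries had 0.16, 0 and 0.58 FPKM. The irradiated A549 libraries lay above all A549 controls, and the low values of the other lines overlapped between conditions.

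The AKR1C genes were high in the cancer lines, while in BEAS-2B cells AKR1C1 and AKR1C2 were at most at 1 FPKM and AKR1C3 at a few FPKM. AKR1C1, the hydroxysteroid dehydrogenase that inactivates progesterone, was at 225.95, 230.44 and 205.49 FPKM in A549 controls and at 506.33, 480.25 and 539.11 FPKM in irradiated A549 cells. In H446 cells it was at 149.05, 146.79 and 141.22 FPKM in the controls and at 161.44, 190.75 and 154.69 FPKM after irradiation. In BEAS-2B cells it was at 0.72, 0.89 and 1 FPKM in the controls and at 0.51, 0.44 and 0.41 FPKM after irradiation. Control and irradiated libraries did not overlap in any line, with the irradiated ones higher in A549 and H446 cells and lower in BEAS-2B cells.

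AKR1C2, which reduces dihydrotestosterone to a weaker androgen, was at 245.63, 242.78 and 229.55 FPKM in A549 controls and at 451.75, 444.83 and 464.57 FPKM after irradiation. The H446 controls had 144.82, 139.28 and 140.93 FPKM and the irradiated H446 libraries 125.67, 149.39 and 127.56 FPKM. The BEAS-2B controls had 0.26, 0.13 and 0.32 FPKM and the irradiated BEAS-2B libraries 0.22, 0.30 and 0.24 FPKM. The groups were separate in A549 cells, and in H446 cells 1 irradiated library lay above all controls and the other two below them.

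AKR1C3, which makes testosterone from androstenedione and is also a prostaglandin F synthase, had the highest level of the AKR1C genes in every line. It was at 347.04, 347.37 and 325.82 FPKM in A549 controls and at 724.62, 691.24 and 706.59 FPKM after irradiation. H446 controls had 213.58, 213.20 and 219.91 FPKM and irradiated H446 cells 187.16, 197.92 and 185.38 FPKM. BEAS-2B controls had 2.76, 2.14 and 2.90 FPKM and irradiated BEAS-2B cells 2.47, 3.27 and 2.24 FPKM. The groups were separate in A549 cells, where the irradiated libraries were higher, and in H446 cells, where they were lower.

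**Figure D1:**
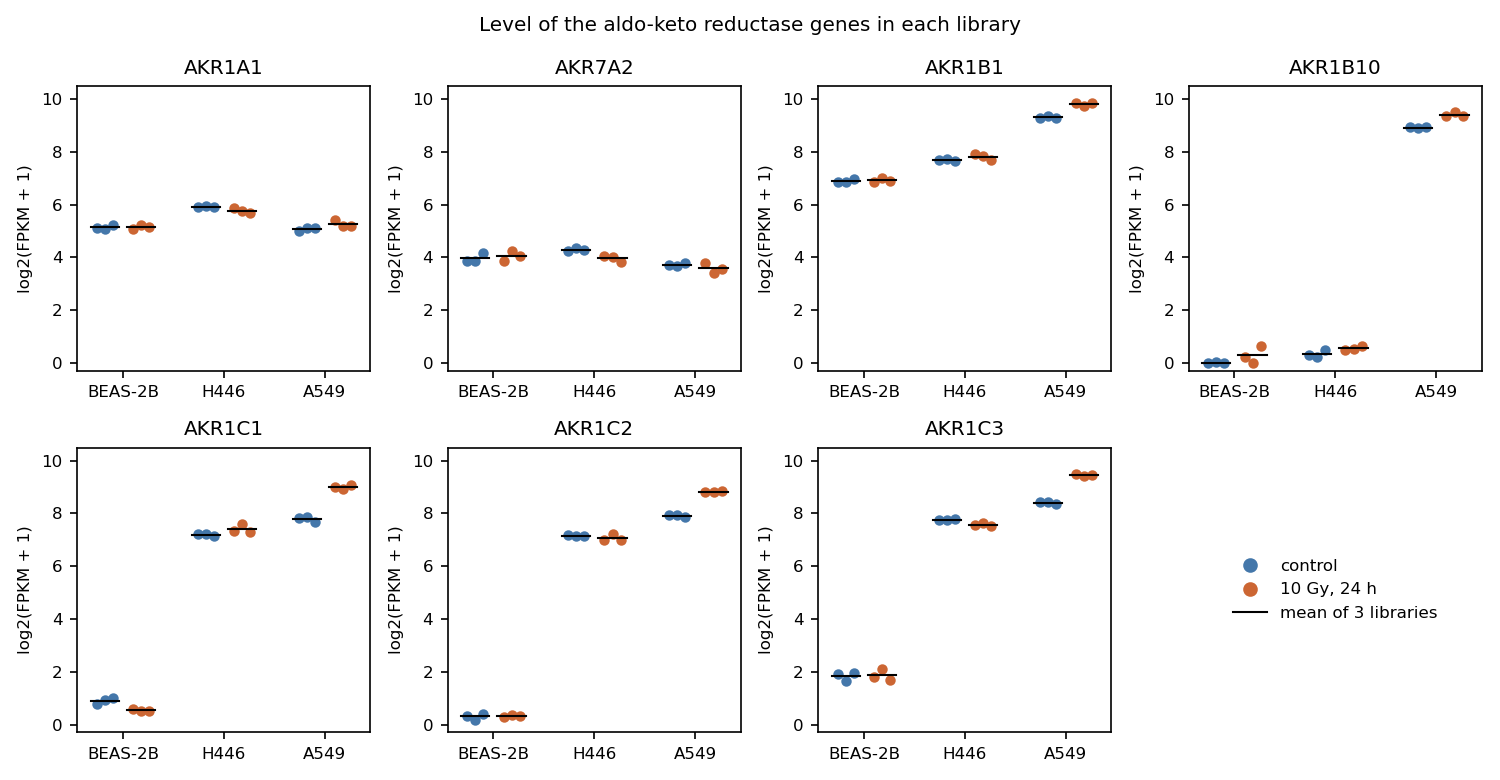
Level of each aldo-keto reductase gene as log2(FPKM + 1) in the 18 libraries, by line, with control libraries in blue, irradiated libraries in orange and the mean of 3 libraries as a black line. AKR1B10 stands above 8 on this scale in A549 cells only, the AKR1C genes stand high in H446 and A549 cells, and AKR1A1, AKR7A2 and AKR1B1 are present in all 3 lines.

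Differences between the untreated lines were tested with limma on log2(FPKM + 1) in the 9 control libraries, over the genes with at least 1 FPKM in at least 3 of them. A gene was called where its p, adjusted over all genes by the Benjamini-Hochberg method, lay under 0.05, here and in all tests that follow. AKR1B10, AKR1C1 and AKR1C2 passed this filter only through the cancer lines, so their comparisons with BEAS-2B cells are given as levels and left out of the counts. Of the other 4 members, AKR1B1 and AKR1C3 were called higher and AKR7A2 lower in A549 than in BEAS-2B controls. In this comparison 85.1% of all 12854 genes tested were called, 38.8% higher and 46.3% lower, and the libraries of 84.5% did not overlap, as was true of the same 3 members. These shares are too high for the count to set the members apart.

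AKR1C3 was 131 times as high in A549 as in BEAS-2B controls on the FPKM scale (log2 difference of 6.57 ± 0.07, SE, n = 3 against 3, limma adjusted p = 4.0e-16), and with a pseudocount of 0.1 the log2 difference was 6.99. AKR1B1 was 5.39 times as high (log2 difference 2.42 ± 0.05, adjusted p = 9.9e-14). AKR1C1 had a mean of 221 FPKM in A549 controls and 0.87 FPKM in BEAS-2B controls, 254 times as much. AKR1C2 stood at 239 against 0.24 FPKM and AKR1B10 at 486 against 0.013 FPKM. The fitted log2 differences of these 3 genes depend on the pseudocount and went from 6.89 to 7.84 for AKR1C1, from 7.60 to 9.52 for AKR1C2 and from 8.91 to 12.1 for AKR1B10 when it was set to 0.1. The AKR7A2 call (-0.24, adjusted p = 0.010) was lost with a correction for GC content (-0.094, adjusted p = 0.289). The AKR1A1 levels of A549 and BEAS-2B controls overlapped, with a log2 difference of -0.053 ± 0.05 and an adjusted p of 0.313.

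Between H446 and BEAS-2B controls, AKR1A1, AKR1B1, AKR1C3 and AKR7A2 were called higher in H446 cells and did not overlap. Of all genes 82.6% were called in either direction and 36% were higher, and 83.2% did not overlap. AKR1C3 was 82.9 times as high. AKR1A1 and AKR1B1 were 1.74 and 1.76 times as high, with log2 differences of 0.78 ± 0.05 and 0.81 ± 0.05, and AKR7A2 was 1.27 times as high. AKR1C1 had a mean of 146 FPKM and AKR1C2 one of 142 FPKM in H446 controls, against 0.87 and 0.24 FPKM in BEAS-2B controls. AKR1B10 was at most at 0.39 FPKM in both.

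Between the 2 cancer lines, AKR1B1, AKR1C1, AKR1C2 and AKR1C3 were called higher in A549 controls and AKR1A1 and AKR7A2 higher in H446 controls, and none overlapped. Of all genes 84.4% were called (43.1% higher and 41.4% lower in A549 cells), and 87.3% did not overlap. AKR1B10, which passed the filter through A549 cells only, is left out of this count. The AKR1C genes were 1.51 times (AKR1C1), 1.69 times (AKR1C2) and 1.58 times (AKR1C3) as high in A549 as in H446 controls. AKR1B1 was 3.06 times as high in A549 cells. AKR1A1 was 1.81 times and AKR7A2 1.52 times as high in H446 cells.

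In A549 cells, irradiation was followed by higher levels of 6 of the 7 members. The AKR1C genes rose most, AKR1C1 to 2.31 times, AKR1C3 to 2.08 times and AKR1C2 to 1.90 times the control mean. The log2 fold changes were 1.2 ± 0.05, 1.06 ± 0.04 and 0.92 ± 0.04 (SE, n = 3 against 3), with limma adjusted p of 6.1e-09, 1.9e-09 and 4.4e-09. AKR1B1 rose to 1.42 times (0.50 ± 0.04, adjusted p = 2.0e-06) and AKR1B10 to 1.4 times (0.49 ± 0.05, adjusted p = 4.3e-06) its control level. Among all 11993 genes tested in A549 cells, 25.3% were called higher and 51.7% in either direction. The libraries of the 6 members that rose did not overlap, which held for 58.5% of all genes. By log2 fold change, AKR1C1 ranked 34, AKR1C3 47 and AKR1C2 72 among these genes, and AKR1B1 and AKR1B10 ranked 453 and 493. RNA of a whole culture does not tell more RNA per cell from more cells of a kind, and these cannot be told apart here.

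AKR1A1 rose by a smaller amount, to 1.14 times the control (0.19 ± 0.06, adjusted p = 0.024). This call was lost without A549 control replicate 1 (0.15) and without A549 10 Gy replicate 1 (0.11), where its highest value was measured. It was also lost with no filter on low values and with no trend in the fit. AKR7A2 was the member that was not called, with 12.3 ± 0.62 FPKM in the controls and 11.1 ± 1.54 FPKM after irradiation (SD, n = 3) and a fold change of -0.14 ± 0.08 on the log2 scale (adjusted p = 0.151). Without A549 10 Gy replicate 1 it was called lower, at -0.24, while without A549 10 Gy replicate 2 it was at -0.063 and not called.

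In H446 cells the members moved little and in both directions. AKR1C1 rose to 1.16 times the control (log2 fold change 0.21 ± 0.07, adjusted p = 0.030), while AKR7A2 fell by 0.33 ± 0.07 (adjusted p = 0.0032), AKR1C3 by 0.18 ± 0.04 (adjusted p = 0.0038) and AKR1A1 by 0.15 ± 0.04 on the log2 scale (adjusted p = 0.019). AKR1B1 and AKR1C2 were not called, with log2 fold changes of 0.12 ± 0.05 and -0.082 ± 0.06 (adjusted p of 0.091 and 0.291). Each gained a call with 1 library left out. AKR1C2 was called lower without H446 10 Gy replicate 2 (-0.16, limma adjusted p = 0.0082). AKR1B1 was called higher without H446 10 Gy replicate 3 (0.17, limma adjusted p = 0.015). Among all genes tested, 38.4% were called, 14.8% higher and 23.6% lower, and 50.3% had libraries that did not overlap, as had the same 4 members. The AKR1C1 call was lost without any 1 of the 3 H446 controls (0.22, 0.21 and 0.18, adjusted p of 0.055, 0.067 and 0.088), and also with no filter on low values (0.21, adjusted p = 0.096), with quantile normalization (0.17, adjusted p = 0.053) and with no trend in the fit (0.21, adjusted p = 0.068). Without H446 10 Gy replicate 2, where AKR1C1 was highest, its change shrank to 0.117 and was still called. The AKR1A1 call was lost without H446 control replicate 2, control replicate 3 or 10 Gy replicate 3 (-0.14, -0.15 and -0.12, adjusted p of 0.064, 0.053 and 0.066). In 1 fit of all 18 libraries the calls of AKR1A1 and AKR1C3 were lost (adjusted p of 0.097 and 0.125). These 4 calls among 6 members tested are to be read beside the GC trend that separated the H446 groups. AKR7A2 and AKR1A1, which fell, have transcripts of 61.1% and 56.7% GC, AKR1C3, which also fell, one of 41.2% GC, and AKR1C1, which rose, one of 42.4% GC. With a correction for that trend, AKR1C3 remained lower (-0.23, adjusted p = 9.4e-04), AKR1B1 was called higher (0.20, adjusted p = 0.0076), and AKR1A1, AKR1C1 and AKR7A2 were no longer called (-0.035, 0.17 and -0.16). The correction changed the whole table too, from 1698 genes higher and 2709 lower to 1814 higher and 1703 lower, and quantile normalization gave 2171 higher and 2183 lower.

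In BEAS-2B cells none of the 4 members that could be tested was called, and neither was any other gene (0% of 11734, with 1446 at an unadjusted p under 0.05, none of them a member). The log2 fold changes were 0.012 ± 0.08 for AKR1A1, 0.038 ± 0.08 for AKR1B1, 0.020 ± 0.13 for AKR1C3 and 0.080 ± 0.12 for AKR7A2, with limma adjusted p between 0.779 and 0.957. Leaving out BEAS-2B 10 Gy replicate 2, the library that stood apart, they were -0.030, -0.0071, -0.096 and -0.019, and again none was called, while 233 genes of the whole table were. AKR1B10, AKR1C1 and AKR1C2 were below the filter on low values. The AKR1C1 libraries nevertheless did not overlap, which was the case for 16.4% of all genes tested in this line, at a mean of 0.87 ± 0.14 FPKM in the controls and 0.45 ± 0.05 FPKM after irradiation (SD, n = 3), with 0.51 and 0.41 FPKM in the irradiated libraries other than replicate 2. Without the filter its log2 fold change was -0.36 ± 0.07 with an adjusted p of 0.396.

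**Figure D2:**
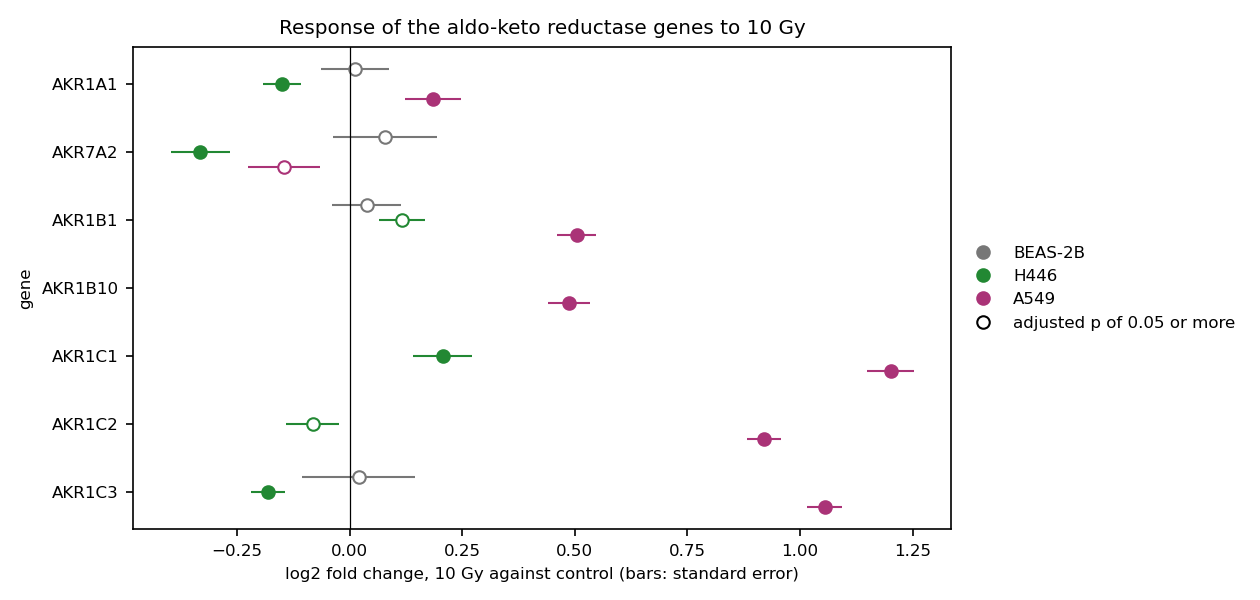
Log2 fold change of each aldo-keto reductase gene after 10 Gy against control in BEAS-2B (grey), H446 (green) and A549 cells (purple), with bars of 1 standard error from limma. Filled points passed an adjusted p of 0.05, open points did not, and genes below the filter on low values in a line have no point; the A549 points of AKR1C1, AKR1C3 and AKR1C2 lie between 0.92 and 1.2.

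Whether the lines responded differently was tested as a difference between their log2 fold changes in 1 fit of all 18 libraries. The response of A549 minus that of BEAS-2B was called for AKR1C3 (1.03 ± 0.12, limma adjusted p = 4.9e-06) and AKR1B1 (0.47 ± 0.08, adjusted p = 4.1e-04), 2 of the 4 members that passed the filter in both lines, against 30.5% of all 13092 genes (14.6% higher, 15.9% lower). AKR1C1 and AKR1C2 gave fitted differences of 1.56 ± 0.10 and 0.90 ± 0.09, but they entered this fit through the cancer lines and their BEAS-2B levels were at most 1 FPKM. The AKR1C sum gave 1.17 ± 0.12 (adjusted p = 1.3e-06). Without BEAS-2B 10 Gy replicate 2 the differences were 1.15 for AKR1C3, 0.51 for AKR1B1, 1.56 for AKR1C1 and 0.93 for AKR1C2.

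The response of A549 minus that of H446, both lines in which the AKR1C genes were well expressed, was called for 5 members, all higher in A549 cells, against 34.5% of all genes (19.2% higher). It was 1.24 ± 0.12 for AKR1C3, 1.0 ± 0.09 for AKR1C2, 0.99 ± 0.10 for AKR1C1, 0.39 ± 0.08 for AKR1B1 and 0.34 ± 0.09 for AKR1A1. The adjusted p were between 3.0e-07 and 0.0079. For AKR7A2 the difference was 0.19 ± 0.15 with an adjusted p of 0.350.

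For the response of H446 minus that of BEAS-2B, none of the 4 members that passed the filter in both lines was called by limma (0 at an adjusted p under 0.05), against 22.7% of all genes (8.98% higher). AKR1C1, which entered this fit through the cancer lines, gave a fitted difference of 0.57 ± 0.10, of which the BEAS-2B change of -0.36 at levels of at most 1 FPKM made up the larger part, and the AKR1C sum gave 0.080 ± 0.12 (adjusted p = 0.662). AKR7A2 stood at -0.41 ± 0.15, with a limma adjusted p of 0.052, and it was called lower when 1 of 5 libraries was left out, namely BEAS-2B control replicate 3 (-0.51, adjusted p = 0.024), BEAS-2B 10 Gy replicate 1 (-0.51, adjusted p = 0.024), H446 10 Gy replicate 1 (-0.46, adjusted p = 0.044), A549 10 Gy replicate 1 (-0.41, adjusted p = 0.040) or A549 10 Gy replicate 2 (-0.41, adjusted p = 0.047). Without BEAS-2B 10 Gy replicate 2 these were 0.56 for AKR1C1 and -0.31 for AKR7A2. The AKR1B10 response could not be compared, since the gene was below 1 FPKM in H446 and BEAS-2B cells and the sign of its differences turned with the pseudocount, from 0.21 to -0.73 for A549 minus BEAS-2B and from 0.27 to -0.17 for A549 minus H446. The 3 comparisons of responses share libraries and are not independent of each other.

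Summed over AKR1C1, AKR1C2 and AKR1C3, the level in A549 cells went from 800.0 ± 33.9 to 1670 ± 48.3 FPKM (SD, n = 3), 2.09 times as much, with no overlap between libraries. With the sum in place of the 3 genes, the log2 fold change was 1.06 ± 0.04 (limma, adjusted p = 4.2e-09). In H446 cells the sum was 503 ± 4.16 FPKM in the controls and 493 ± 38.9 FPKM after irradiation, and the libraries overlapped (log2 fold change -0.031 ± 0.05, adjusted p = 0.668). In BEAS-2B cells it was 3.71 ± 0.53 and 3.37 ± 0.58 FPKM, the latter 3.045 FPKM without replicate 2. The sum therefore rose in A549 cells and was not called in H446 cells, where AKR1C1 and AKR1C3 had moved in opposite directions. The response of A549 minus that of H446 was 1.09 ± 0.12 for the sum (adjusted p = 2.8e-06).

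All 7 members together reached 1966 ± 40.6 FPKM in A549 controls and 3302 ± 51.8 FPKM in irradiated A549 cells, which was 0.399% and 0.666% of all listed FPKM. In H446 cells they summed to 789 ± 5.61 and 788 ± 46.1 FPKM, and in BEAS-2B cells to 171 ± 9.56 and 175 ± 11.6 FPKM, the latter 169 FPKM without replicate 2. AKR1B1 made up most of the BEAS-2B sum. The exact two-sided permutation p of the A549 difference was 0.10, the smallest that 3 against 3 libraries allow, and it was 0.80 in H446 and 0.60 in BEAS-2B cells.

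**Figure D3:**
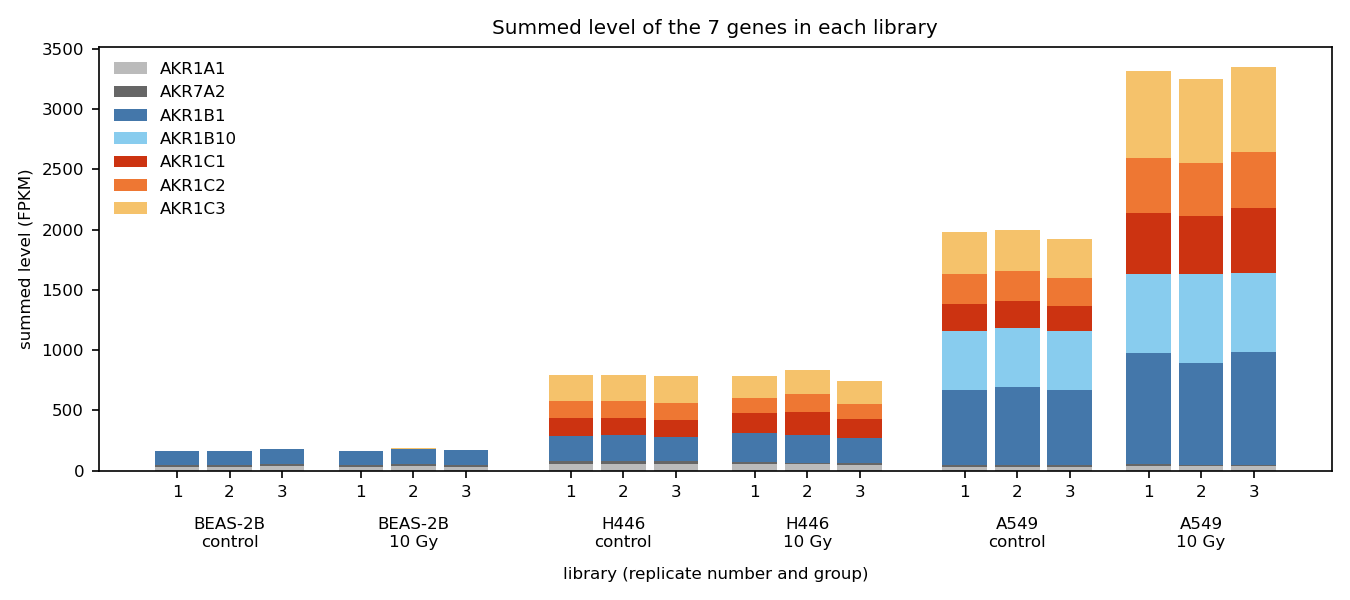
Level of the 7 genes stacked in each of the 18 libraries, in FPKM from 0, with replicate numbers under the bars. The irradiated A549 libraries reach 3245 to 3347 FPKM, the A549 controls 1921 to 2001 FPKM, the H446 libraries 741 to 833 FPKM and the BEAS-2B libraries 164 to 187 FPKM.

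The split of the AKR1C level among its 3 genes differed between control and irradiated libraries, without overlap, for AKR1C1 and AKR1C2 in both cancer lines. AKR1C1 held 29 ± 0.73% of the sum in H446 controls and 34.2 ± 1.19% after irradiation, and 27.6 ± 0.54% in A549 controls and 30.4 ± 0.95% after irradiation. AKR1C2 held 29.9 ± 0.30% and 27.2 ± 0.34% in A549 cells and 28.2 ± 0.33% and 27.2 ± 0.64% in H446 cells. AKR1C3 held 42.9 ± 0.87% and 38.6 ± 1.6% in H446 cells, again without overlap, and 42.5 ± 0.27% and 42.4 ± 0.94% in A549 cells, where the libraries overlapped (SD, n = 3). In BEAS-2B cells the AKR1C1 share was lower after irradiation, at 23.7 ± 4.46% and 13.7 ± 2.52%, without overlap, at AKR1C1 levels of at most 1 FPKM, and it was 15.9 and 14.2% in the irradiated libraries other than replicate 2. The ratio of AKR1C1 to AKR1C2 was 1.03 ± 0.03 and 1.26 ± 0.04 in H446 cells, 0.921 ± 0.03 and 1.12 ± 0.04 in A549 cells and 4.25 ± 2.26 and 1.83 ± 0.44 in BEAS-2B cells, in control and irradiated libraries. Its libraries did not overlap in any line, and the exact two-sided permutation p was 0.10 in each, the smallest possible. The irradiated BEAS-2B libraries other than replicate 2 had ratios of 2.32 and 1.71. More than 50% of the windows of AKR1C1 and AKR1C2 are shared, as given above, so these shares rest on the remaining positions and on how the quantification divided the others.

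**Figure D4:**
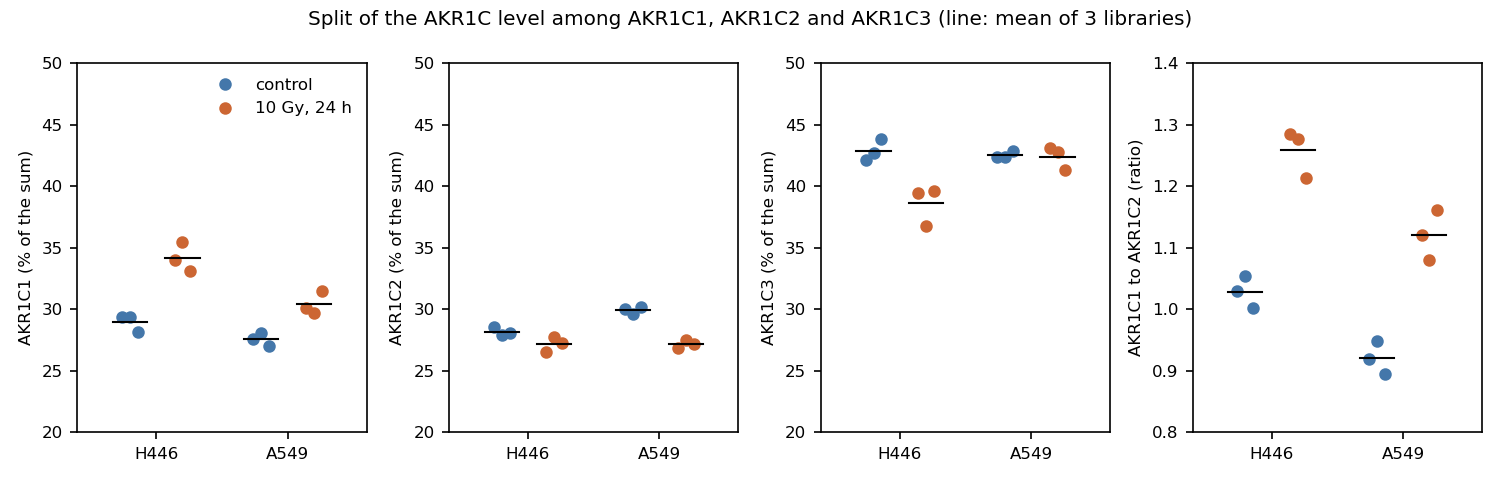
Share of the AKR1C sum held by AKR1C1, AKR1C2 and AKR1C3 in percent, and the ratio of AKR1C1 to AKR1C2, in each library of H446 and A549 cells, with controls in blue, irradiated libraries in orange and means of 3 libraries as black lines; the axes do not start at 0. The ratio of AKR1C1 to AKR1C2 is at most 1.05 in H446 controls and between 1.21 and 1.28 after irradiation.

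Across the 18 libraries, AKR1C1, AKR1C2 and AKR1C3 had Pearson correlations of log2(FPKM + 1) between 0.998 and 0.999 with each other, and AKR1B1 and AKR1B10 one of 0.951. These describe mainly the differences between 3 lines, which the libraries share, and the part of shared reads in those of the AKR1C genes was not tested. AKR7A2 ran the other way from AKR1B10 (-0.766). Among 8570 genes with a mean of at least 10 FPKM in at least 1 group, the pattern most like AKR1C1 and like AKR1C2 was that of INA, a neuronal intermediate filament gene (0.999 with each), ahead of or level with the other AKR1C genes, and that most like AKR1C3 was UGT1A7, a glucuronosyltransferase (0.999). SPP1, the osteopontin gene, was closest to AKR1B10 (0.999), GCNT3, a mucin glycosylation enzyme, to AKR1B1 (0.996), RAB26 to AKR1A1 (0.986) and C19orf24 to AKR7A2 (0.929).

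The counts of related genes that follow are to be read beside the shares of all genes called after irradiation, 25.3% higher and 26.4% lower in A549, 14.8% higher and 23.6% lower in H446 and 0% in BEAS-2B cells. Without BEAS-2B 10 Gy replicate 2, the BEAS-2B counts were again 0 for each of these lists but that of prostaglandin and steroid partners. Of the other genes of the superfamily, 9 of 10 listed were in the table and only 4 passed the filter in A549 cells. AKR1B15, the close copy of AKR1B10, and AKR1E2 were the 2 that rose there, by log2 fold changes of 0.41 ± 0.08 and 0.24 ± 0.06 (limma adjusted p of 9.9e-04 and 0.0049). AKR1B15 was at 6.42 ± 0.73 FPKM in A549 controls and 8.81 ± 0.70 FPKM after irradiation, against at most 0.05 FPKM in BEAS-2B cells. AKR1B10 was at 486 and 682 FPKM in the same A549 groups, and 19.7% of its coding windows also occurred in AKR1B15. How far reads of AKR1B10 entered the AKR1B15 values, and so the AKR1B15 rise, was not tested. In H446 cells 1 of 2 tested was called, KCNAB2, a potassium channel beta subunit of this fold, which fell by 0.36 ± 0.05, and in BEAS-2B cells 0 of 4 were called, with 0 at an unadjusted p under 0.05. AKR1C4, the liver gene of the AKR1C cluster, had a mean of at most 0.04 FPKM in every group.

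Genes of the NRF2 system were counted because AKR1B10 and the AKR1C genes belong to the same known target group. In A549 cells 17 of 25 rose and 5 fell after irradiation, with a median log2 fold change of 0.24 against -0.0040 over all genes. ALDH3A1, an aldehyde dehydrogenase, rose most, from 657 ± 10.7 to 1956 ± 68.1 FPKM (1.57 ± 0.04, adjusted p = 7.5e-11). UGT1A6, a glucuronosyltransferase, and GPX2, a glutathione peroxidase, rose by 1.04 ± 0.12 and 0.71 ± 0.13. In H446 cells 0 of 24 rose and 14 fell, with a median of -0.20 against -0.033 over all genes. ALDH3A1 fell there by 0.77 ± 0.07, TRIM16L by 0.49 ± 0.06 and OSGIN1 by 0.42 ± 0.09. With the GC correction 11 of the 24 fell and 0 rose in H446 cells, and with quantile normalization 13 fell and 1 rose. In BEAS-2B cells 0 of 21 were called by limma (2 at an unadjusted p under 0.05). In the controls ALDH3A1 stood at 0.12 ± 0.08 FPKM in BEAS-2B, 657 in A549 and 52.1 ± 2.22 FPKM in H446 cells. The cystine transporter gene SLC7A11 stood at 1.19 ± 0.08 FPKM in BEAS-2B, 82.4 ± 6.65 FPKM in A549 and 48.4 ± 0.93 FPKM in H446 controls (SD, n = 3), with limma log2 differences from BEAS-2B cells of 5.25 and 4.49.

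Of the other enzymes that reduce carbonyls and aldehydes, 7 of 21 rose and 7 fell in A549 cells, not far from the shares of all genes, with HSD17B7 (0.63 ± 0.05) and HSD11B1 (0.65 ± 0.08), both steroid dehydrogenases, on the higher side and DHRS2 (-1.17 ± 0.14) on the lower. In H446 cells 2 of 19 rose and 4 fell, and in BEAS-2B cells 0 of 19 were called, with 0 at an unadjusted p under 0.05.

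Of 13 listed genes from pathways that supply NADPH, the cofactor of these reductases, 5 rose and 2 fell in A549 cells. Not each of these genes makes NADPH itself. The transketolase gene TKT (0.39 ± 0.04) and IDH2 (0.41 ± 0.06) rose, and the mitochondrial folate enzyme gene MTHFD2 fell by 0.99 ± 0.04. In H446 cells 2 rose and 7 fell, among them the folate enzyme gene MTHFD1 by 0.47 ± 0.03. With the GC correction these were 0 and 6. In BEAS-2B cells 0 of 13 were called, with 0 at an unadjusted p under 0.05.

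Partners of AKR1C3 and of the other AKR1C enzymes in prostaglandin and steroid metabolism rose in 4 and fell in 1 of 10 cases in A549 cells. The cyclooxygenase gene PTGS2 rose by 0.69 ± 0.08, the prostaglandin E synthase gene PTGES by 0.42 ± 0.05 and the receptor gene PTGER2 by 0.65 ± 0.09. In H446 cells 1 of 11 rose, the receptor gene PTGER4 (0.61 ± 0.07), and 2 fell, PTGES2 by 0.33 ± 0.04 and SRD5A1 by 0.16 ± 0.05. In BEAS-2B cells 0 of 9 were called by limma, 2 at an unadjusted p under 0.05, and 1 was called once BEAS-2B 10 Gy replicate 2 was left out.

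**Figure D5:**
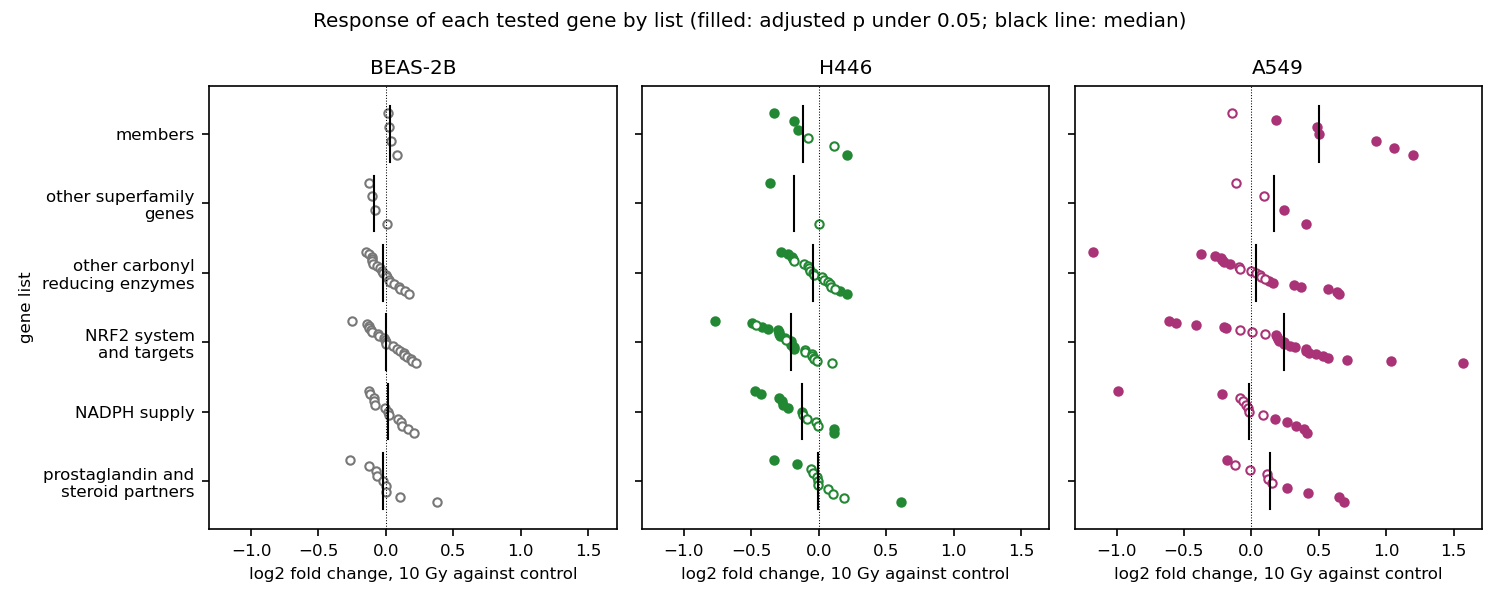
Log2 fold change after 10 Gy of each tested gene of the 6 lists in BEAS-2B, H446 and A549 cells; filled points passed an adjusted p of 0.05 in limma and the black line is the median of the list. The members have a median of 0.50 in A549, -0.12 in H446 and 0.029 in BEAS-2B cells, over the 7, 6 and 4 that could be tested.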

How the data were processed

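RNA of 18 libraries (3 cell lines, control or 10 Gy, 3 libraries each) had been sequenced as poly(A) libraries on a BGISEQ-500. The submitters' processing notes name HISAT2 2.0.4, Bowtie2 2.2.5, RSEM 1.2.12 and the build hg38, without roles. The deposited table holds 1 value per gene and library, read here as FPKM made by the authors. The header names no unit, and the unit was taken from the values. Depth in reads is unknown. All columns were assigned to a sample (0 left over).

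Values were fitted as log2(FPKM + 1) with limma 3.58.1 (trend, R 4.3.3), over genes with at least 1 FPKM in at least 3 libraries of a fit. Each line was fitted alone for 10 Gy against control, the 9 controls together, and all 18 libraries for differences between responses. Fold changes on this scale understate those of low genes. Sums and shares were compared by 36 exact two-sided permutation tests, none of which can fall below 0.10, so none could pass an adjusted limit. Python 3.11.15, pandas 2.3.3, numpy 2.4.6, scipy 1.17.1 and matplotlib 3.10.9 were used, and the fits were tested on simulated data.

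All 7 members were named. Of each list, up to 3 genes with the largest log2 difference among those called without overlap could be named, and for likeness the 3 genes with the highest correlation. The values of 1 listed gene are not reported here. The members and lists were chosen with earlier results of these data known. Alternatives were a pseudocount of 0.1, no filter, quantile normalization, no trend, a replicate block, the AKR1C genes summed, 1 fit of all libraries, each library left out and, added after seeing the data, a GC correction by loess (17850 genes with a GC value), and quantile normalization and left-out libraries for levels and sums.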

Additional observations from a re-analysis of the deposited data

Results flagged for a closer look

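Responses to irradiation differed between lines, by limma's test of the difference of 2 log2 fold changes, in 7 cases among members that passed the filter on low values in both lines. Between A549 and BEAS-2B cells the difference was 1.03 for AKR1C3 and 0.47 for AKR1B1. Between A549 and H446 cells it was 1.24 for AKR1C3, 1.0 for AKR1C2, 0.99 for AKR1C1, 0.39 for AKR1B1 and 0.34 for AKR1A1. AKR1C1 and AKR1C2 passed the filter only through the cancer lines and were at most at 1 FPKM in BEAS-2B cells, so their fitted differences from that line, 1.56 and 0.57 for AKR1C1 (A549 and H446) and 0.90 for AKR1C2 (A549), are not counted. The AKR1C sum gave 0.080 between H446 and BEAS-2B cells. Reads shared by AKR1C1 and AKR1C2 were divided by the quantification. The part of these in the differences was not tested. No formal rule for outlying values was applied to groups of 3 libraries, and BEAS-2B 10 Gy replicate 2, which stood apart in its p53 targets, is described above.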

How the results depend on the processing

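The number of members called after 10 Gy was 6 in A549 cells under most alternatives (5 with no filter or no trend, 5 to 6 with 1 library left out). In H446 cells it was 4, 3 with no filter, quantile normalization or no trend (AKR1C1 lost in each), and 2 with the AKR1C genes summed (the call of the sum then counts for each of the 3 genes), in 1 fit of all 18 libraries or with the GC correction, and 2 to 5 with 1 library left out (2 without control replicate 2 or 3, 5 without 10 Gy replicate 2). BEAS-2B cells had 0, and the 1 listed when all 18 libraries were fitted together was AKR1C1, which passed the filter of that fit only through the cancer lines and is no call in BEAS-2B cells. For the response of H446 minus that of BEAS-2B it was 0 among members that passed the filter in both lines. With AKR1C1, which passed only through the cancer lines, it was 1, and 0 with the AKR1C genes summed and 1 to 2 with 1 library left out (AKR7A2 added). The summed AKR1C level of H446 controls was 510 FPKM after quantile normalization. The cause was not tested.

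Signs turned only for differences that were not called. In BEAS-2B cells these were AKR1A1 (-0.0035 with quantile normalization, -0.077 with the GC correction, -0.030 to 0.053 with 1 library left out), AKR1B1 (GC correction -0.026, left out -0.0071 to 0.077), AKR7A2 (GC correction -0.039, left out -0.019 to 0.18) and AKR1C3 (left out -0.096 to 0.10). Elsewhere they were AKR1A1 between A549 and BEAS-2B controls (0.046 with quantile normalization, 0.049 with the GC correction), AKR1A1 for H446 minus BEAS-2B (GC correction 0.025) and AKR1B10 for A549 minus BEAS-2B (pseudocount 0.1, -0.73), A549 minus H446 (pseudocount 0.1, -0.17) and H446 minus BEAS-2B (left out -0.21 to 0.12). Of all values of single members, 1003 kept direction and call, 19 lost the call, 12 gained one and 18 turned sign.

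Replicate numbers were not shown to pair the libraries. Same-numbered control and irradiated libraries correlated at -0.13 to 0.32 in BEAS-2B, 0.010 to 0.19 in H446 and -0.099 to 0.010 in A549 cells. Libraries of different numbers correlated at -0.50 to 0.38, -0.18 to 0.11 and -0.025 to 0.083. The ranges overlap in each line, so pairing was neither shown nor excluded. With the replicate block the members called were 0, 4 and 6 in BEAS-2B, H446 and A549 cells, as without it. Over all genes, BEAS-2B calls went from 0 to 439 with the block, 841 in the fit of all 18 libraries, 233 without 10 Gy replicate 2 and 1 with no filter. For H446 minus BEAS-2B, 2974 genes were called (1176 higher, 1798 lower), 2770 with quantile normalization (1539 higher, 1231 lower), 1374 with the GC correction (744 higher, 630 lower), 1798 without BEAS-2B control replicate 1, 4532 without BEAS-2B 10 Gy replicate 3 and 1982 without H446 10 Gy replicate 3. Depth in reads is unknown, so no counting error could be given for members under 1 FPKM.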

Other observations

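The regulators of the NRF2 system were looked up after their values were seen. NFE2L2, which encodes NRF2, was at 94.3 ± 2.27 FPKM in A549 controls and 63.6 ± 2.05 FPKM in irradiated A549 cells (SD, n = 3), and fell by 0.56 on the log2 scale (limma adjusted p = 2.9e-07). KEAP1, its inhibitor, fell by 0.20 in A549 cells (limma adjusted p = 0.0065) and by the same 0.20 in H446 cells (adjusted p = 0.018). The H446 value is without the GC correction, in a line whose groups the GC trend separated. SLC7A11, the cystine transporter gene and an NRF2 target, fell by 0.61 in A549 cells (adjusted p = 7.7e-06), from 82.4 ± 6.65 to 53.6 ± 3.87 FPKM, while the AKR1C genes and ALDH3A1 rose there. In H446 cells NFE2L2 was at 52.2 ± 1.10 and 56.1 ± 1.87 FPKM and was not called (0.10, adjusted p = 0.056). The RNA level of NFE2L2 gives no measure of NRF2 protein, which was not measured here.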
